A study of Mus musculus with 21 samples.

Results

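Fabp1, the cytosolic fatty acid carrier best known from liver and gut, and Acaa1b, a thiolase of the peroxisome, gave lower signal, each at its main probe set, on all 15 arrays of bleomycin-treated mouse lung than on the control array of the same strain and sex, as did 1.39% of all tested probe sets. The genes described were 9 listed genes of fatty acid transport and oxidation: Fabp1, Acaa1b, Pdk4, Cpt1a, Ehhadh, Acadm, Acadl, Hadha and Ucp2. All probe sets annotated to them were taken, which gave 14 probe sets of 8 genes among 22626 probe sets and 12393 genes on the array. No probe set was named for Ucp2 in the annotation used, and that gene is not analysed here. Of the 14 probe sets, 12 belonged to 1 gene and 2 were shared by Acaa1b and its close relative Acaa1a. Fabp1 and Acaa1b had been picked because they were among the largest falls at 3 weeks, so their 3 week values are given as a description without p values. The 15 arrays above include the 8 at 3 weeks, set against the control arrays used in that choice. The count was therefore partly fixed by the choice.

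The whole right lung was studied in 3 inbred mouse strains, namely A/J, C57BL/6 and C3H/HeJ, with no engineered allele in the labels, and each array held RNA pooled from 3 to 5 mice. Treated mice had received bleomycin, a DNA-breaking antitumour drug that scars the lung, through an osmotic minipump. A/J gave 2 control pools, 4 at 3 weeks and 2 at 6 weeks. C57BL/6 gave 2 control pools, 2 at 3 weeks, 1 female pool at 6 weeks and 2 pools of mice labelled sick, called moribund here, whose time is not stated. C3H/HeJ gave 2 pools each of control, 3 week and 6 week mice. Except for the single C57BL/6 pool, each pair was 1 male and 1 female pool. The dose was 100 mg/kg in males and 125 mg/kg in females, except for 2 extra A/J pools at 3 weeks, of males given 80 mg/kg and females given 100 mg/kg. The sources used here give neither ages nor the treatment of controls. Values are probe set intensity after quantile normalization, on a linear scale; changes are log2 differences after adding 16. Values of different probe sets are not on a common scale and were not set against each other.

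As background, long-chain fatty acids enter the mitochondrion as carnitine esters made by Cpt1a, and are then shortened by acyl-CoA dehydrogenases such as Acadl and Acadm and by the trifunctional protein, whose alpha subunit is Hadha. Peroxisomes run a parallel chain in which Ehhadh carries out the middle steps and Acaa1b the last cleavage, while Pdk4 inhibits pyruvate dehydrogenase and so spares glucose. Many of these genes are known targets of the nuclear receptor PPAR alpha, which binds DNA with a retinoid X receptor at a pair of half-sites 1 base apart (a DR1 element).

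The 250 bases before the RefSeq start of Fabp1 (GRCm38.p6, chr6:71199629-71199878, + strand), Acaa1b (chr9:119157094-119157343, − strand) and Acadm (chr3:153944644-153944893, − strand) are shown because these 3 genes were the members called in moribund lung at probe sets of their own. Capitals mark a DR1 match.
Fabp1: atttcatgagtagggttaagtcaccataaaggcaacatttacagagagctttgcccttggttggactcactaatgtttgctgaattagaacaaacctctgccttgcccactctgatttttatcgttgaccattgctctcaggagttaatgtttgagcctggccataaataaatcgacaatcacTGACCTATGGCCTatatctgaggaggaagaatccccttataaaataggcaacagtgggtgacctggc
Acaa1b: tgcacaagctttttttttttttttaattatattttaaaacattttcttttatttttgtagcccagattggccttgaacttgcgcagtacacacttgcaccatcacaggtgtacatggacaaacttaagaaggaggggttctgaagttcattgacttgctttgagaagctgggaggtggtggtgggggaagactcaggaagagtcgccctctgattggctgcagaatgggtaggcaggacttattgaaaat
Acadm: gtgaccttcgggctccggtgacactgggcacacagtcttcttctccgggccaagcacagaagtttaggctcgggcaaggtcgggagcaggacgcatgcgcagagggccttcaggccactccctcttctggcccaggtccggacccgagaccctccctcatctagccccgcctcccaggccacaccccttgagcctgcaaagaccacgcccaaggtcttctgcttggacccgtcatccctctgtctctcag
A search for AGGNCA repeated after any 1 base, on both strands, in windows reaching from 250 bases before to 50 after each start, matched 125 of 32851 windows (0.381%). Windows on 1 chromosome, which holds none of the listed genes, were left out of this and the following shares. Among the 9 listed genes the match was in Fabp1 alone, where it read TGACCTATGGCCT on the strand of the gene at positions −67 to −55 from the start. The half-site AGGTCA, on both strands, was in 16.3% of the windows, with 2 matches in Fabp1 (one of them inside the DR1 match), 1 in Cpt1a and 1 in Acadm. TATAAA, on both strands, was in 13.6% of windows and lay at −30 to −25 in Fabp1. A match describes the letters in the window and is no evidence of binding.

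Before the results, 1 array stood apart. The 3′/5′ signal ratio of Gapdh control probes, a guide to RNA integrity, was 2.08 on the C3H/HeJ female 6 week array and between 0.770 and 1.34 on the other arrays. The C3H/HeJ 6 week changes of Fabp1, Acaa1b and Acadm are given below with and without it. All other C3H/HeJ 6 week values, ranges and counts include it. Without it the C3H/HeJ 6 week change went from −0.05 to 0.30 for Pdk4, 0.09 to −0.02 for Hadha, 0.13 to 0.12 for Acadl and 0.29 to 0.24 for the brightest Cpt1a probe set. Array medians ran from 58.4 to 111 as deposited. The dimmest 7542 probe sets by mean signal were left out of the tests, which kept 15084. Of the 14 probe sets, 10 passed that filter; the fainter probe sets of Fabp1, Acadl and Cpt1a and the single one of Ehhadh did not and are described by their values. The main probe sets of Fabp1 and Acaa1b passed narrowly, at percentiles 40.1 and 39.8 of mean signal. In whole lung, fewer cells of a type and less RNA per cell cannot be told apart.

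In A/J lung, Fabp1 (brighter probe set; gene at chr6:71199879-71205034) read 171 in the male and 179 in the female control pool. At 3 weeks the A/J males read 46.3 at 80 mg/kg and 29.4 at 100 mg/kg, and the females 107 at 100 mg/kg and 41.3 at 125 mg/kg. At 6 weeks the male pool read 108 and the female pool 81.8. All treated A/J pools lay below both controls, and the 6 week female lay inside the range of the 3 week pools while the 6 week male was level with the highest of them.

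C57BL/6 controls were lower from the start, at 55.1 in the male and 63.3 in the female pool. The 3 week pools read 29.6 (male) and 25.7 (female), and the moribund pools 13.7 and 20.2. The single 6 week pool, a female one, had the lowest signal of the 21 arrays at this probe set, 11.8. The control, 3 week and moribund ranges did not overlap here. The order of the treated C57BL/6 stages was not kept at the fainter Fabp1 probe set, described below. In C3H/HeJ lung the controls read 126 (male) and 127 (female), the 3 week pools 33.6 and 29.8, and the 6 week pools 79.8 and 106. The 6 week pools there lay between the control and the 3 week pools with no overlap on either side.

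Ordered by group mean, Fabp1 ran from A/J control (175 ± 5.8, SD, n = 2) through C3H/HeJ control (126 ± 0.74, n = 2), A/J 6 weeks (94.8 ± 18.4, n = 2), C3H/HeJ 6 weeks (93.0 ± 18.6, n = 2), C57BL/6 control (59.2 ± 5.8, n = 2), A/J 3 weeks (56.0 ± 34.6, n = 4), C3H/HeJ 3 weeks (31.7 ± 2.7, n = 2), C57BL/6 3 weeks (27.7 ± 2.8, n = 2) and moribund C57BL/6 (16.9 ± 4.6, n = 2) to the 6 week C57BL/6 pool (11.8). Neighbours whose ranges overlapped were the A/J and C3H/HeJ 6 week groups, C57BL/6 control and A/J 3 weeks, and A/J and C3H/HeJ 3 weeks. At this brighter probe set, untreated C57BL/6 lung thus stood among the treated groups of the other strains. At the fainter one its mean, 33.9, was above the 3 and 6 week means of A/J (14.5 and 15.8) and C3H/HeJ (7.18 and 31.7). The C3H/HeJ 6 week pools there, at 19.8 and 43.5, lay on either side of it.

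**Figure D1:**
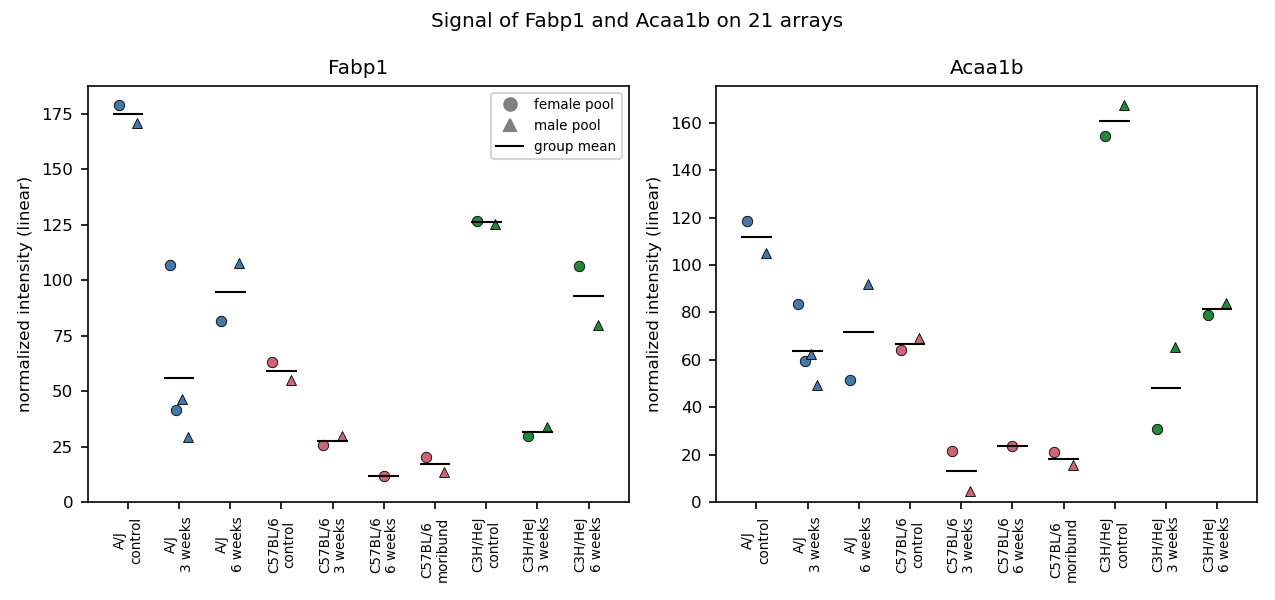
Normalized intensity (linear scale) of Fabp1 (brighter probe set) and Acaa1b on the 21 arrays, by strain and stage; circles are female pools, triangles male pools, lines group means. Controls of A/J (171 and 179) and C3H/HeJ (126 and 127) stand highest for Fabp1, and C57BL/6 controls (55.1 and 63.3) near the treated A/J pools.

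At 3 weeks the log2 change of Fabp1 from control was −1.52 (SE 0.27) for A/J, −0.78 (SE 0.32) for C57BL/6 and −1.57 (SE 0.32) for C3H/HeJ, and −1.29 (SE 0.18) as the mean of the strains. The smaller C57BL/6 change began from a lower control level. With an offset of 64 in place of 16, the C57BL/6 value was −0.43, the C3H/HeJ value −0.99 and the mean −0.82. The difference in response is a strain by treatment term. Here and for the genes below, it uses the same 3 week and control arrays by which the genes were chosen. Its intervals and p values are thus not independent of that choice. For Fabp1 it was 0.73 for C57BL/6 minus A/J (SE 0.42, 95% interval −0.16 to 1.62, limma adjusted p = 0.474) and 0.79 for C57BL/6 minus C3H/HeJ (SE 0.45, −0.16 to 1.74, adjusted p = 0.447). Neither passed the threshold of 0.05, and both intervals reach from slightly below 0 to above 1.5.

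Control arrays were the baseline of the 3 week rule, so a comparison among them is not independent of the choice of genes. At the fainter Fabp1 probe set, which was not tested, control means were 33.9 in C57BL/6 and 42.1 in A/J. Among control lungs at the main probe set, Fabp1 was lower in C57BL/6 than in A/J by a log2 difference of −1.35 (SE 0.32, limma adjusted p = 0.0269, both C57BL/6 pools below both A/J pools). It was the 1 call among the 10 tested member probe sets in that comparison, in which 3.17% of all probe sets were called and 1.19% were called lower. C57BL/6 minus C3H/HeJ was −0.92 (SE 0.32, adjusted p = 0.163) and A/J minus C3H/HeJ 0.43 (SE 0.32, adjusted p = 0.9996). The call of C57BL/6 against A/J was lost on the deposited scaling (−1.09, adjusted p = 0.100), with an offset of 1 (adjusted p = 0.052), without the dim filter (0.0514), and on leaving out the A/J male (0.213), A/J female (0.114), C57BL/6 male (0.144) or C57BL/6 female (0.176) control.

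Moribund C57BL/6 lung had lower Fabp1 than its controls, by −1.20 (SE 0.32, 95% interval −1.87 to −0.52, limma adjusted p = 0.0200, lower in 2 of 2 pools). Its size depended on the offset, at −0.61 with an offset of 64. This comparison and those at 6 weeks use the same control arrays as the 3 week contrast by which the genes were chosen. The call was lost with array weights (adjusted p = 0.0584), on the C57BL/6 arrays alone (0.0581), and without the moribund male (0.0745), the moribund female (0.0803), the control male (0.0998) or the control female (0.114). At 6 weeks the change was −0.80 (SE 0.32) in A/J, −0.39 (SE 0.32) in C3H/HeJ and −0.59 (SE 0.22) as their mean, with limma adjusted p of 0.999, 1 and 0.622. Without the C3H/HeJ female 6 week array the C3H/HeJ value was −0.50 and the mean −0.64 (adjusted p = 0.624); without the A/J female 6 week array the A/J value was −0.52.

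The fainter Fabp1 probe set read 43.1 and 41.2 in the A/J, 33.1 and 34.7 in the C57BL/6, and 37.4 and 41.9 in the C3H/HeJ male and female controls. At 3 weeks it lay between 6.74 and 19.2 in A/J, at 1.05 and 0.583 in C57BL/6, and at 3.41 and 10.9 in C3H/HeJ. In C57BL/6 the moribund pools read 4.81 (male) and 2.52 (female) and the 6 week pool 6.51. All of these lay above the 3 week pools, the reverse of the main probe set, at very low signal. The strains differed little in their controls here, unlike at the main probe set. It lay below the control of the same strain and sex on 14 of 15 treated arrays, the exception being the C3H/HeJ 6 week female pool at 43.5, on the array with the high Gapdh ratio. The log2 group difference at 3 weeks was −0.95 for A/J, −1.57 for C57BL/6 and −1.28 for C3H/HeJ, so the strain order was not that of the main probe set. The probe sets correlated at r = 0.846 over the 21 arrays, a description across arrays that share groups.

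Acaa1b (the probe set of this gene alone; gene at chr9:119148043-119157093) read 105 and 119 in the male and female A/J controls. The A/J 3 week pools read 62.4 (male, 80 mg/kg), 49.4 (male, 100), 83.6 (female, 100) and 59.7 (female, 125), and the 6 week pools 92.1 (male) and 51.3 (female). All lay below the controls, and in each sex the A/J 3 week pool at the lower dose had the higher signal, for Acaa1b as for Fabp1, in single pools that allow no test of dose. C57BL/6 controls read 69.2 and 64.2, the 3 week pools 4.84 (male) and 21.7 (female), the 6 week pool 23.4 and the moribund pools 15.7 and 20.96. C3H/HeJ controls read 167 and 154, the 3 week pools 65.2 and 30.8, and the 6 week pools 83.9 and 79.1. In C57BL/6 every treated pool was below 24, whichever the stage, while C3H/HeJ again stood higher at 6 than at 3 weeks without overlap.

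The order of Acaa1b group means was C3H/HeJ control (161 ± 9.2, SD, n = 2), A/J control (112 ± 9.5, n = 2), C3H/HeJ 6 weeks (81.5 ± 3.4, n = 2), A/J 6 weeks (71.7 ± 28.9, n = 2), C57BL/6 control (66.7 ± 3.6, n = 2), A/J 3 weeks (63.8 ± 14.4, n = 4), C3H/HeJ 3 weeks (48.0 ± 24.4, n = 2), the 6 week C57BL/6 pool (23.4), moribund C57BL/6 (18.3 ± 3.7, n = 2) and C57BL/6 3 weeks (13.3 ± 11.9, n = 2). Each group from C3H/HeJ 6 weeks to C3H/HeJ 3 weeks overlapped its neighbour in this order, as did the last pair. The other neighbours were separate.

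The 3 week change of Acaa1b was −0.70 (SE 0.27) for A/J, −1.56 (SE 0.31) for C57BL/6 and −1.52 (SE 0.31) for C3H/HeJ, with a mean of −1.26 (SE 0.17). The C57BL/6 value depended on the offset, at −2.56 with an offset of 1 and −0.77 with 64, with its male pool at 4.84; the mean was −0.75 with 64. The difference in response was −0.86 for C57BL/6 minus A/J (95% interval −1.74 to 0.01, limma adjusted p = 0.371), −0.82 for C3H/HeJ minus A/J (−1.70 to 0.05, adjusted p = 0.99999) and −0.04 for C57BL/6 minus C3H/HeJ (adjusted p = 0.979). None passed the test, so a smaller response of A/J was not established.

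In moribund C57BL/6 lung Acaa1b was lower than control by −1.27 (SE 0.31, limma adjusted p = 0.0131, lower in 2 of 2 pools), and by −0.67 with an offset of 64. The call was lost on the C57BL/6 arrays alone (adjusted p = 0.0733), and without the moribund male (0.0640), the control male (0.0872) or the control female (0.0731). Changes at 6 weeks were −0.58 in A/J, −0.86 in C3H/HeJ and −0.72 (SE 0.22) as their mean, with adjusted p of 0.999, 0.925 and 0.379 in the limma fit; without the C3H/HeJ female 6 week array the C3H/HeJ value was −0.81, and the A/J value was −0.97 without its male and −0.20 without its female 6 week array. In control lung C57BL/6 minus C3H/HeJ was −1.10 (SE 0.31, adjusted p = 0.0787), a difference that was called with an offset of 64 (adjusted p = 0.0213), with array weights (0.0150) and without either C3H/HeJ 3 week pool (0.0467 and 0.0445). C57BL/6 minus A/J was −0.63 (adjusted p = 0.342), and −0.34 on the deposited scaling.

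The probe sets that Acaa1b shares with Acaa1a moved less. The dimmer of them read 281 and 292 in A/J controls, 259 and 268 in C57BL/6 controls, and 303 and 231 in C3H/HeJ controls, with 3 week pools between 224 and 320. The moribund pools, at 164 and 169, were the lowest of the 21 arrays. Its 3 week mean change was −0.13 (SE 0.09), while in moribund lung it fell by 0.61 on the log2 scale (SE 0.16, limma adjusted p = 0.0166). That call was lost on the deposited scaling (adjusted p = 0.105), with array weights (0.0533), on the C57BL/6 arrays alone (0.0853), and without the moribund male (0.0550), moribund female (0.0718), control male (0.0810) or control female (0.115). The brighter shared probe set, at 438 to 668 over all arrays, changed by −0.37 in moribund lung (SE 0.15, adjusted p = 0.116). A probe set of Acaa1a alone, looked up after these values were seen, changed by 0.15 at 3 weeks (SE 0.15) and by 0.45 in moribund lung (SE 0.27, adjusted p = 0.313). At 3 weeks, then, the change of the Acaa1b probe set, −1.26 in the mean, was not seen at its size in the probe sets that also read Acaa1a.

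Ehhadh, the peroxisomal enzyme one step before the thiolase, was dim and not tested. Controls read 41.1 and 37.8 in A/J, 33.7 and 37.1 in C57BL/6, and 39.9 and 32.8 in C3H/HeJ, male before female. The 3 week pools read 36.4 and 25.0 in A/J males, 30.1 and 26.9 in A/J females, 18.2 and 24.2 in C57BL/6, and 22.7 and 19.7 in C3H/HeJ. All 8 of these lay below their control of the same sex, with log2 group differences of −0.29, −0.47 and −0.49 in the 3 strains. At 6 weeks the female pools of A/J (39.1) and C3H/HeJ (42.3) were above their controls and the male pools (20.6 and 21.1) below; the C57BL/6 female read 23.6. Moribund pools read 15.6 and 29.3.

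Among the mitochondrial enzymes, Acadm (gene at chr3:153922353-153944643), the medium-chain acyl-CoA dehydrogenase, was lower than control in the 3 week groups and in moribund lung, as Fabp1 and Acaa1b were, but overlapped it in C3H/HeJ at 6 weeks. A/J controls read 711 (male) and 668 (female), 3 week pools 564 and 505 (males) and 578 and 610 (females), and 6 week pools 550 and 539. C57BL/6 controls read 654 and 759, 3 week pools 455 and 481, the 6 week pool 465, and moribund pools 432 and 462. C3H/HeJ controls read 766 and 561, 3 week pools 480 and 484, and 6 week pools 732 and 560. Every treated pool was below the control of its strain and sex (15 of 15), though in C3H/HeJ the 6 week pools were almost level with it.

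The 3 week change of Acadm was −0.28 (SE 0.14) for A/J, −0.57 (SE 0.16) for C57BL/6 and −0.43 (SE 0.16) for C3H/HeJ. The C3H/HeJ value was −0.20 without its male control, −0.66 without its female control and −0.84 on the deposited scaling, where the mean of the strains went from −0.43 to −0.74. In moribund lung Acadm fell by 0.64 on the log2 scale (SE 0.16, limma adjusted p = 0.0144, lower in 2 of 2 pools). That call was lost on the deposited scaling (adjusted p = 0.0706), on the C57BL/6 arrays alone (0.0622), and without the moribund male (0.0653) or the control female (0.173). The 6 week mean was −0.18 (adjusted p = 0.875), made up of −0.33 in A/J and −0.03 in C3H/HeJ, the latter turning to 0.16 without the female 6 week array. Control lungs of the strains did not differ past the threshold (limma adjusted p from 0.853 to 0.9996).

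Acadl, the long-chain dehydrogenase, followed another course at its brighter probe set. A/J controls read 570 and 568.2, and the 3 week pools 431 and 490 in males and 455 and 417 in females, a separate lower range with a log2 change of −0.34 (SE 0.11). At 6 weeks A/J read 476 and 445 (−0.30, limma adjusted p = 0.999). C57BL/6 read 541 and 506 in controls, 515 and 508 at 3 weeks, 531 at 6 weeks and 568.3 and 424 in moribund lung, and C3H/HeJ read 475 and 404, 461 and 469, and 497 and 464. Changes in those strains at 3 weeks were −0.03 and 0.08, each with an SE of 0.13. The difference in response between C3H/HeJ and A/J, 0.42 (SE 0.18), did not pass the test (adjusted p = 0.99999). The dim second probe set read 9.86 to 40.9 over all arrays and correlated with the first at only r = 0.299.

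Hadha, the trifunctional protein subunit, stayed between 422 and 609 over the 21 arrays. Its 3 week changes were −0.07 for A/J, −0.19 for C57BL/6 and 0.16 for C3H/HeJ (mean −0.04, SE 0.08), and −0.08 in moribund lung (limma adjusted p = 0.778). The C57BL/6 3 week pools, 495 and 481, lay below their controls, 539 and 582, and the 6 week pool at 609 above them.

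Cpt1a, the gatekeeper of mitochondrial import, gave 0 calls in any comparison. Its brightest probe set read 807 and 863 in A/J controls, 828 and 836 (males) and 723 and 590 (females) at 3 weeks, and 770 and 991 at 6 weeks. C57BL/6 read 769 and 706 in controls, 655 and 744 at 3 weeks, 832 at 6 weeks and 751 and 452 in moribund pools; C3H/HeJ read 775 and 548, 753 and 983, and 803.5 and 799. Treated and control ranges overlapped in all of these 3 week groups, and the mean change was 0.05 (SE 0.12). In moribund lung the change was −0.33 (SE 0.22, limma adjusted p = 0.370), with the female pool at 452 below both controls and the male pool at 751 between them. The second probe set gave −0.12 (SE 0.14) and −0.26 (adjusted p = 0.558). Correlations among the 3 Cpt1a probe sets over arrays were 0.277, 0.150 and −0.229, far below that of the Fabp1 probe sets. The faintest, which was not tested, read 13.5 to 46.4 over all arrays. It was higher at 3 weeks in C57BL/6, at 46.4 and 28.7 against 19.3 and 16.6 in controls, and at 6 weeks in C3H/HeJ, at 26.1 and 34.5 against 20.7 and 24.6, both without overlap, unlike the brightest probe set in C57BL/6.

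Pdk4, which is induced by fasting in many tissues, did not follow the same course in the 3 strains. A/J controls read 88.8 and 100, 3 week males 78.1 and 48.5, 3 week females 107 and 63.9, and 6 week pools 58.4 and 71.0. The 3 week range there overlapped the controls, and the 6 week pools lay below both. C57BL/6 controls already spanned 50.3 (male) to 105 (female), around all of the treated pools: 59.9 and 71.2 at 3 weeks, 55.5 at 6 weeks, and 70.1 and 67.9 in moribund mice. In C3H/HeJ alone the 3 week pools (71.3 and 66.0) lay above the controls (54.9 and 39.3), by 0.43 (SE 0.30), and the 6 week pools read 56.2 and 34.6. The mean change at 3 weeks was −0.01 (SE 0.16), and that in moribund lung −0.08 (limma adjusted p = 0.908).

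**Figure D2:**
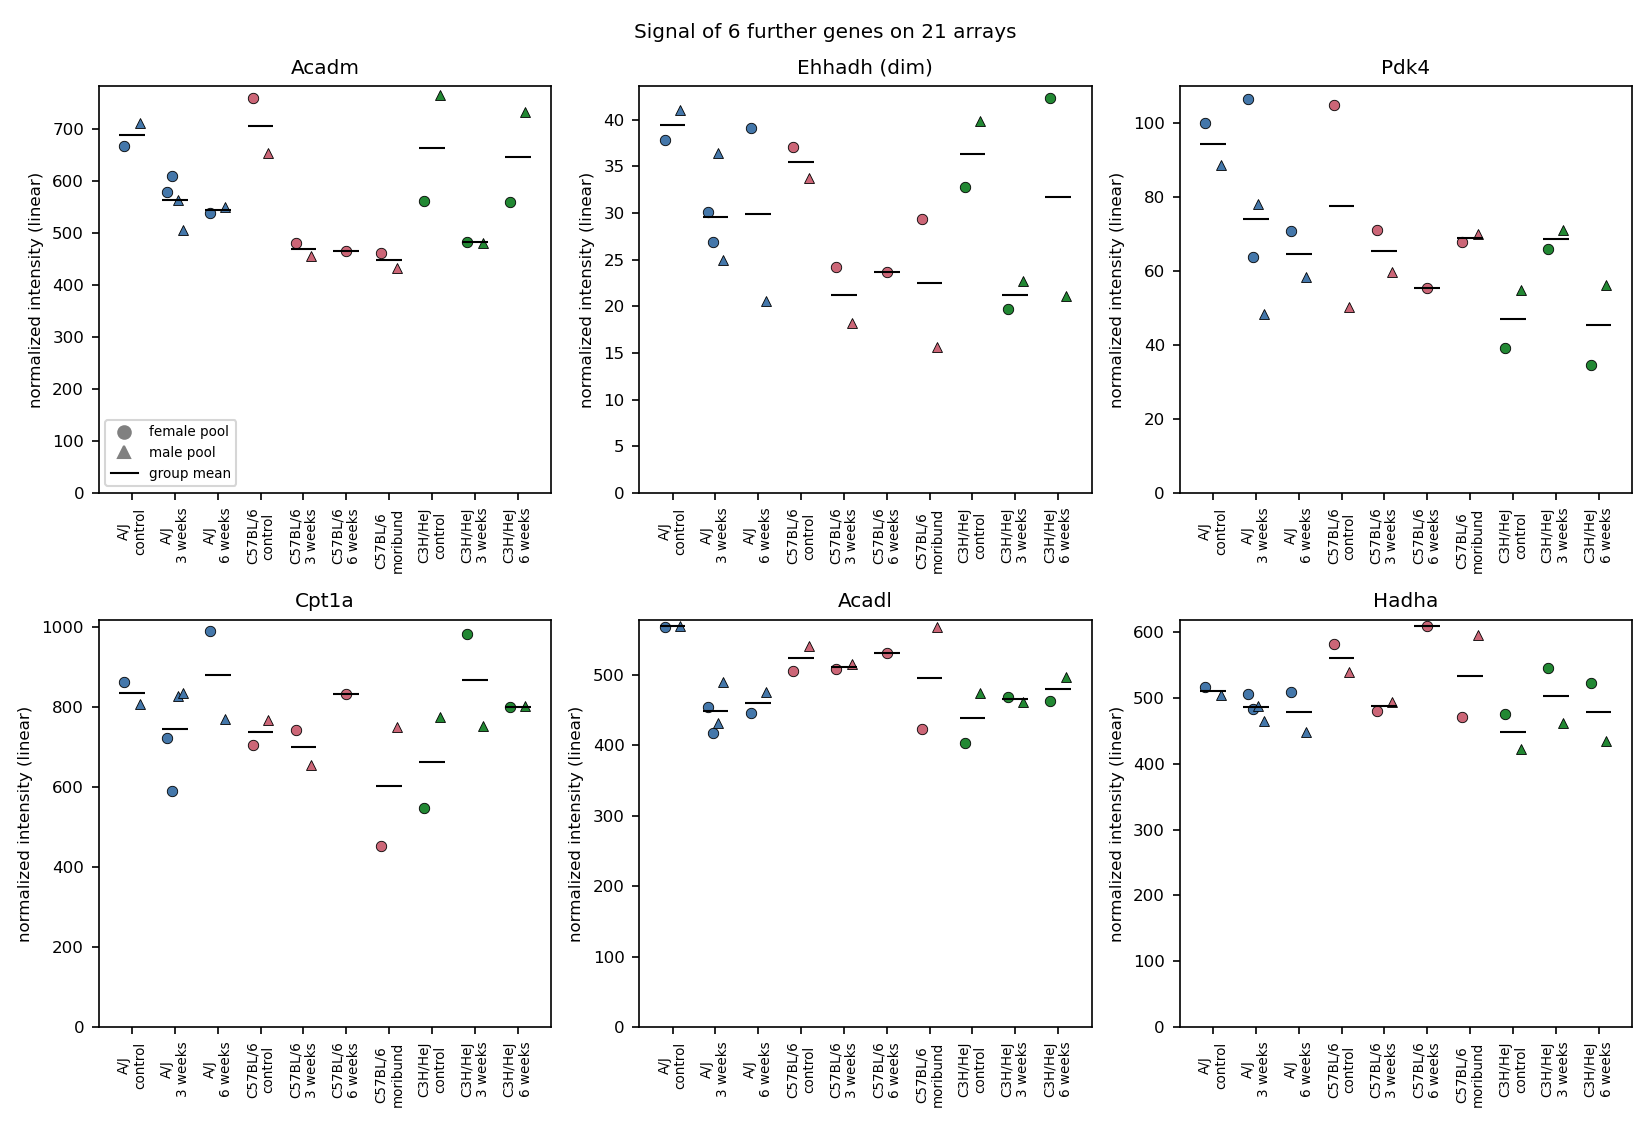
Normalized intensity (linear scale) of Acadm, Ehhadh, Pdk4, Cpt1a, Acadl and Hadha (1 probe set each) on the 21 arrays, by strain and stage; circles are female pools, triangles male pools, lines group means. Acadm treated pools sit below their controls in A/J and C57BL/6, whereas Hadha stays between 422 and 609 throughout.

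The genes were chosen on the 3 week contrasts, so the member counts there are given without a reading. Of the 10 tested probe sets, 3 (Fabp1, Acaa1b and Acadm) were past the threshold in the 3 week mean, where 13.7% of all probe sets were called and 7.27% were called lower, 1 in A/J (0.842% and 0.192%), 2 in C57BL/6 (10.7% and 5.04%) and 2 in C3H/HeJ (1.7% and 0.57%). In moribund lung 4 were lower and 0 higher (12.8% of all called, 6.9% lower). All 10 values were below 0 there, with a median of −0.35 against 0.00 for all probe sets, and the range ran from −1.27 to −0.08. The 4 calls were Fabp1, Acaa1b, Acadm and the dimmer probe set shared by Acaa1b and Acaa1a, so Acaa1b entered by 2 probe sets. The moribund and 6 week comparisons use the control arrays by which the genes were chosen. Their counts are thus not independent of that choice. At 6 weeks 0 were called by limma in A/J (0.0994% of all), C3H/HeJ (0.0663%) or their mean (0.192%), while 709, 672 and 911 of all probe sets had an unadjusted p under 0.05. Responses of the strains gave 0 calls among the members (1.07% of all probe sets for C57BL/6 minus A/J, 0.152% for C57BL/6 minus C3H/HeJ, 0% for C3H/HeJ minus A/J), as did sex (0.053%) and the control lungs of C57BL/6 minus C3H/HeJ (2.5%) and A/J minus C3H/HeJ (1.01%).

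Ranges were also compared for the 10 tested probe sets, beside all tested probe sets. The control arrays are again those used in the choice of genes. Moribund pools lay wholly below control at 5 and above at 0 (27.6% and 26.2% of all), A/J 6 week pools at 6 and 0 (19% and 17.9%), and C3H/HeJ 6 week pools at 3 and 1 (15.1% and 19.4%). At 3 weeks, where nothing is read from the counts, A/J pools lay below control at 4 and above at 0 (11.8% and 10%), C57BL/6 pools at 6 and 0 (29.5% and 29.1%), and C3H/HeJ pools at 4 and 1 (24.8% and 21.6%). Set against the 3 week arrays, which the choice of genes used, the C3H/HeJ 6 week pools were above at 6 and below at 1 (22.3% and 17.1%), while the A/J 6 week pools overlapped the 3 week pools at all 10 (7.02% of all below and 6.71% above). Moribund C57BL/6 lay below its 3 week pools at 4 and above at 0 (19.9% and 18.5%).

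**Figure D3:**
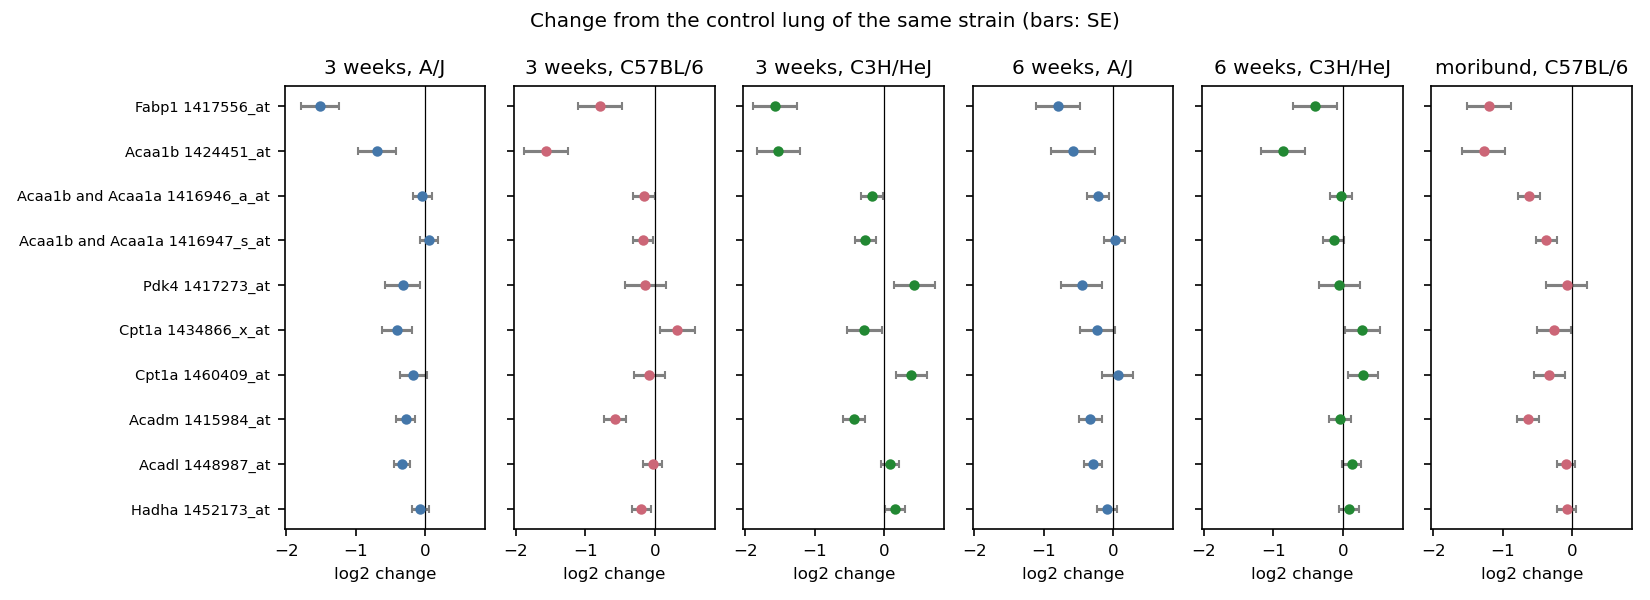
Log2 change from the control lung of the same strain for the 10 tested probe sets, with SE bars, in 6 comparisons. Fabp1, Acaa1b and Acadm lie left of 0 in all 6 panels, and the moribund panel has all 10 values below 0. All panels use the control arrays by which the genes were chosen.

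Markers of other cell types moved in the same comparisons, in which 13.7% (3 week mean) and 12.8% (moribund lung) of all probe sets were called. Of 13 tested heart and skeletal muscle genes 10 were called lower in the 3 week mean and 9 in moribund lung; their summed signal ran from 6837 to 8282 in A/J controls and 4236 to 5046 at 3 weeks, 6160 to 6616 in C57BL/6 controls, 2229 to 2906 at 3 weeks and 2179 to 2548 in moribund pools, and 6133 to 6783, 3049 to 4329 and 5540 to 6193 in C3H/HeJ controls, 3 and 6 week pools. Of 4 tested adipocyte genes 2 and 1 were lower, of 9 type 2 alveolar genes 3 and 5, of 6 club cell genes 4 and 4, and of 8 endothelial genes 4 and 6, with 1 endothelial gene higher at 3 weeks. Macrophage genes were higher at 7 of 11 in both comparisons, and neutrophil genes at 6 and 4 of 7. The part of these cell types in the Fabp1, Acaa1b and Acadm values was not tested. Of 11 hepatocyte genes with a probe set, Alb and Cps1 passed the filter and 0 were called in the 3 week mean, with a median change of −0.07 over these 2 and of −0.22 in A/J. The summed hepatocyte signal was 277 to 413 in A/J controls and 225 to 314 in A/J at 3 weeks, and stayed between 222 and 413 over all arrays. All 5 enterocyte genes measured were dim.

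The wider fatty acid pathway was read from a list of 115 genes that leaves out the members, of which 100 had a probe set and 82 were tested. In the 3 week mean 3 were higher and 12 lower (13.7% of all probe sets called, 7.27% lower), with a median of −0.05 against −0.01 for all probe sets. In moribund lung 3 were higher and 11 lower (12.8% of all probe sets called, 6.9% lower), with a median of −0.08. Most of the pathway, like most of all probe sets, did not pass the test. Of 18 mitochondrial beta oxidation genes 2 were lower in each comparison, and of 18 peroxisomal genes 1 and 2. Of the 15 calls at 3 weeks, 8 held under all alternatives run (Fabp3, Fabp4, Acss1, Cyp4b1, Txnip, Acss2, Acat1 and Cd36), and of the 14 in moribund lung 5 did (Cat, Acss1, Cyp4b1, Cd36 and Hadh).

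Among lipid binding proteins, Fabp3, the form typical of heart and muscle, ran from 268 to 404 in A/J controls, 177 to 244 in C57BL/6 controls and 312 to 393 in C3H/HeJ controls, and from 141 to 173, 94.3 to 107 and 146 to 168 at 3 weeks. It fell by 1.01 on the log2 scale in the 3 week mean (SE 0.11, limma adjusted p = 9.97e-06) and by 0.72 in moribund lung (adjusted p = 0.0241, lost without the control male, 0.225, or the moribund female, 0.154), beside the muscle markers above. Fabp4, the adipocyte and endothelial form, fell by 0.65 in the 3 week mean (SE 0.16, adjusted p = 0.0116), from 728 to 842 down to 318 to 594 in A/J and from 451 to 766 down to 225 to 332 in C57BL/6. In C3H/HeJ the Fabp4 controls, at 412 to 465.8, lay inside the 3 week range of 310 to 612. The fatty acid receptor Cd36 fell by 0.83 in moribund lung (SE 0.12, adjusted p = 0.000256).

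Acetyl-CoA synthetases fell too: Acss1, the mitochondrial form, by 0.62 at 3 weeks (limma adjusted p = 0.000149) and 1.16 in moribund lung, and Acss2 by 0.42 and 0.72. Catalase (Cat), which removes the peroxide made by peroxisomal oxidation, ran from 983 to 1308 in C57BL/6 controls, 414 to 582 at 3 weeks and 410 to 570 in moribund pools, whereas A/J 3 week pools (812 to 1252) overlapped their controls (1222 to 1247). It fell by 0.48 in the 3 week mean (adjusted p = 0.0149; lost without the C57BL/6 3 week male, 0.0684, the C57BL/6 control male, 0.0644, or the C3H/HeJ control male, 0.0593) and 1.20 in moribund lung (adjusted p = 0.00188). In the mitochondrial chain, the thiolase Acat1 fell by 0.39 at 3 weeks (adjusted p = 0.00380), and the short-chain dehydrogenase Hadh fell by 0.68 in moribund lung (adjusted p = 0.00149). Txnip, a brake on glucose uptake, fell by 0.54 at 3 weeks, and the deacetylase Sirt3 fell by 0.74 in moribund lung (adjusted p = 0.0452, lost on leaving out any of 11 arrays of 21, up to 0.348).

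Plin2, which coats lipid droplets, went the opposite way, from 1024 to 1240 in C57BL/6 controls to 1648 to 1783 at 3 weeks and 1823 to 1953 in moribund pools. It rose by 0.49 in the 3 week mean (SE 0.09, limma adjusted p = 0.00115) and 0.74 in moribund lung (adjusted p = 0.00493). Angptl4, an inhibitor of lipoprotein lipase, rose by 0.55 (adjusted p = 0.0477) and 1.30 (adjusted p = 0.0121), and the pantetheinase Vnn1 by 0.40 at 3 weeks (adjusted p = 0.0393). The coactivator Ppargc1b rose by 1.44 in moribund lung (adjusted p = 0.0454). Leaving out 1 array ended the 3 week calls of Angptl4 and Vnn1 for 13 and 11 of the 21 arrays and the moribund call of Ppargc1b for 8, while the 3 week call of Plin2 was kept; in moribund lung Plin2 was lost without the control male (0.0939) and Angptl4 without the control male (0.208) or moribund female (0.190). On the deposited scaling, which moved the median of all probe sets to −0.27 at 3 weeks and −0.28 in moribund lung, 0 pathway genes were called higher in moribund lung and the 3 week calls of Plin2 (0.21, adjusted p = 0.273), Angptl4 (0.26, 0.290) and Vnn1 (0.16, 0.529) were lost.

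Cyp4b1, a lung monooxygenase that acts on fatty acids, was the 1 pathway gene of 82 tested whose 3 week response was called different between strains. For C57BL/6 minus A/J, the comparison of that call, 1.07% of all probe sets were called. The count is given without a reading. C57BL/6 pools ran from 2984 to 3151 in controls and 1304 to 1311 at 3 weeks, while A/J ran from 3033 to 3505 and 2835 to 3884. C57BL/6 minus A/J was −1.32 (SE 0.17, limma adjusted p = 0.00158), and the call was lost on the deposited scaling (adjusted p = 0.164). C3H/HeJ pools lay between, at 1949 to 2295 against controls of 2984 to 2996. In C3H/HeJ the carnitine carrier Slc25a20 fell by 0.99 at 3 weeks (SE 0.18, adjusted p = 0.00899), from 248 to 257 in controls to 116 to 123, while the C57BL/6 and A/J 3 week ranges overlapped their controls; the call was lost without the C3H/HeJ 3 week male (0.0553) or either control (0.100 and 0.0888). Control lungs differed in the regulator Nrip1 (52.7 to 77.3 in A/J, 142 to 221 in C57BL/6, 163 to 169 in C3H/HeJ) and the kinase Pdk1 (57.8 to 71.8, 155 to 182 and 165 to 199), both called lower in A/J against either strain. These calls were each lost without single arrays, by 2 of 21 for Nrip1 and 4 for Pdk1 against C57BL/6, and by 13 and 9 against C3H/HeJ. Crat, which makes acetylcarnitine, was lower in C57BL/6 than in A/J control lung by −0.88 (adjusted p = 0.0377, lost on leaving out any of 5 arrays). Of the 82 genes, 3 were thus called for C57BL/6 minus A/J control (3.17% of all probe sets). For A/J minus C3H/HeJ control 2 were called (1.01% of all).

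**Figure D4:**
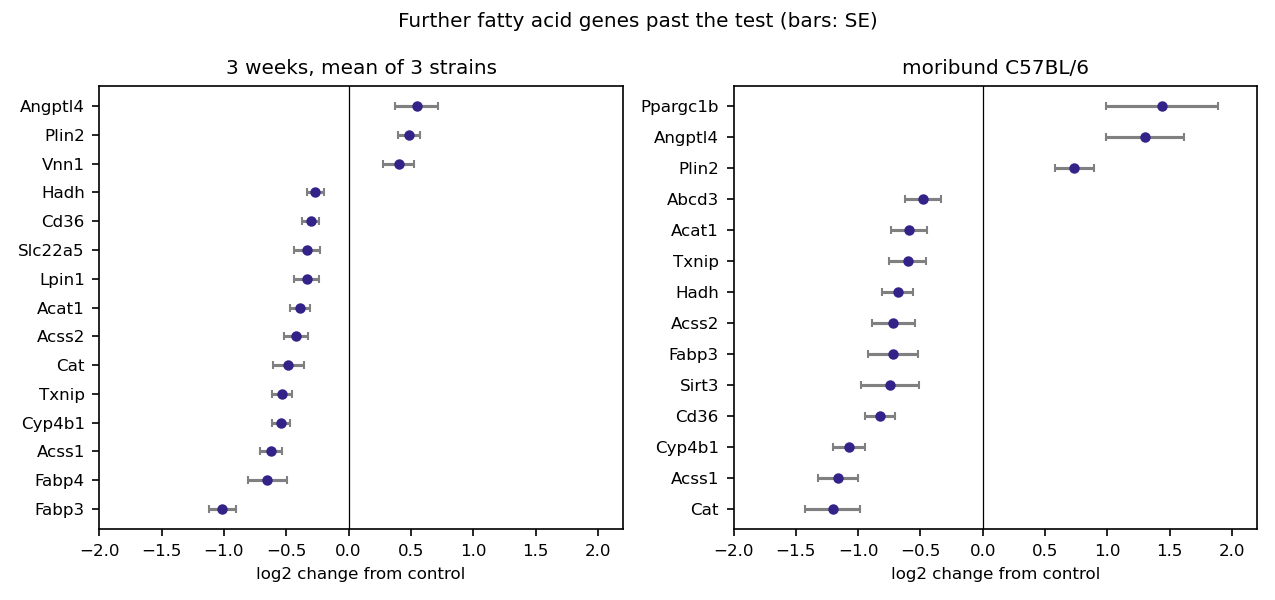
Log2 change from control, with SE bars, of the genes of the wider fatty acid list that passed limma's test in the 3 week mean of the strains (left, 15 genes) and in moribund C57BL/6 lung (right, 14 genes). Plin2 and Angptl4 lie right of 0 in both panels, and Fabp3, Acss1, Cyp4b1 and Cat left of 0 in both.

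The receptors themselves were faint. Ppara, Ppard and Pparg did not pass the dim filter; Ppara ran from 9.76 to 12.8 in A/J controls, 10.0 to 13.6 in C57BL/6 controls and 5.16 to 8.70 in C3H/HeJ controls, and from 3.82 to 4.64 in moribund pools, values too low on this array to compare. Over the 21 arrays and 9078 genes, the genes whose log2 pattern was most like that of Fabp1 were Calml4 (r = 0.902), Man2c1 (0.900), Spice1 (0.896), Prickle1 (0.895), Myh6 (0.886) and Stard8 (0.879), with Acaa1b at rank 15 (0.855) while Fabp1 stood at rank 55 among the genes like Acaa1b. For Acaa1b they were Stard8 (0.941), Myl4 (0.930), Pum2 (0.925), Bmp6 (0.925), Tnni3 (0.914) and Gstm1 (0.906). Myh6, Myl4 and Tnni3 are heart muscle genes, and all of these arrays share the same strain and treatment groups. Fabp1 and Acaa1b had both been picked for large falls after bleomycin on these arrays, so a high correlation between them was partly fixed by the choice. With the strain means taken out, they correlated at 0.770. The other genes named here, picked as the most like, had higher values. These ran from 0.795 (Stard8 with Fabp1) to 0.913 (Stard8 with Acaa1b).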

How the data were processed

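The deposited values are probe set intensity on a linear scale, 1 column for each of 21 arrays, from total RNA extracted with Trizol and labelled by standard Affymetrix procedures, per the labels. The sources used here name no software for probe summary or scaling. The 64 control probe sets were left out, values were quantile normalized, 16 was added and log2 taken, and the dimmest 7542 by mean were left out. All arrays entered a single limma 3.58.1 fit (R 4.3.3) with strain by stage groups and sex as terms (eBayes with trend, 10 residual degrees of freedom, 16.4 after shrinkage). The fit was also run on simulated data with independent noise and no effect of sex, dose or pool. That run therefore does not test the limits of the design given below. Tests were two-sided, with Benjamini-Hochberg adjustment over 15084 probe sets; calls are adjusted p values under 0.05. Replicates were separate pools, and the number of arrays limits the precision. No group held pools alike in both sex and dose. The p values therefore measure the spread between pools that is left after a common sex term. That spread includes any difference between groups in the effect of sex and, in treated groups, differences in dose. It is not the spread between like pools. Of 22626 probe sets, 20380 had 1 gene symbol in the platform annotation, 691 several and 1555 none; 20351 matched the RefSeq gene table (GRCm38.p6), and promoters are RefSeq's. Members and gene lists were chosen with earlier results of these data known. Every member probe set was named, with pathway genes called in a comparison (up to 8 each way by size) and the 6 genes most like Fabp1 and Acaa1b.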

Additional observations from a re-analysis of the deposited data

How the results depend on the processing

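The alternatives were the deposited or median scaling, no sex term, an offset of 1 or 64, the dimmer 50% left out or no dim filter, 1 probe set per gene, array weights, only the arrays of the strains compared, and leaving out each array; they were applied to the wider pathway list after the data were seen. No result changed its direction among those called. The 50% filter removes Fabp1 and Acaa1b themselves, so member calls became 1 in the 3 week mean, 0 in A/J, 0 in C3H/HeJ and 1 in C57BL/6 at 3 weeks, 0 for C57BL/6 minus A/J control and 2 in moribund lung. Only arrays of the strains compared, with fewer arrays to estimate the spread, gave 0 (A/J), 1 (C3H/HeJ) and 1 (C57BL/6) at 3 weeks and 0 in moribund lung for members, and 2, 0, 5 and 7 for pathway genes, with 0 for A/J minus C3H/HeJ control. The deposited scaling gave members 1 in C57BL/6 at 3 weeks, 0 for C57BL/6 minus A/J control and 2 in moribund lung, and pathway genes 2, 1 and 5 at 3 weeks in A/J, C3H/HeJ and C57BL/6, 6 in moribund lung, 1 for A/J minus C3H/HeJ control and 0 for the response of C57BL/6 minus A/J. Median scaling gave 1 member and 7 pathway genes in C57BL/6 at 3 weeks. An offset of 1 gave 1 member in C3H/HeJ at 3 weeks, 0 members for C57BL/6 minus A/J control and 0 pathway genes for A/J minus C3H/HeJ control; an offset of 64 gave 1 member for C57BL/6 minus C3H/HeJ control. No dim filter gave 0 members and 1 pathway gene for C57BL/6 minus A/J control and 0 pathway genes for A/J minus C3H/HeJ control. Array weights gave 2 members for C57BL/6 minus C3H/HeJ control and 2 in moribund lung, and pathway genes 2 (A/J) and 17 (C57BL/6) at 3 weeks, 10 and 4 for C57BL/6 control minus A/J and minus C3H/HeJ, and 2 for the response of C57BL/6 minus A/J. Unless given above, the cause was not tested.

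Leaving out 1 array gave member calls from 0 to 1 in A/J, 0 to 2 in C3H/HeJ and 0 to 3 in C57BL/6 at 3 weeks, 0 to 4 in moribund lung, and 0 to 1 for C57BL/6 control minus A/J and minus C3H/HeJ; the 3 week mean stayed at 3. Pathway calls ran from 1 to 2, 0 to 3 and 2 to 12 at 3 weeks in the same strains, 6 to 18 in moribund lung, 0 to 6 for C57BL/6 minus A/J and 0 to 3 for A/J minus C3H/HeJ control, and 0 to 1 for the response of C57BL/6 minus C3H/HeJ. The 3 week mean of pathway genes ran from 10 to 17. Pools were matched by sex through the sex term. No paired analysis was possible beyond that because the labels give no replicate numbers and each array is a pool of other mice. The number of pools, 2 in most groups, limits the precision. The Fabp1 change in moribund lung ran from −1.77 with an offset of 1 to −0.61 with 64.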

Other observations

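The brown fat uncoupling protein Ucp1 read 89.5 and 124 in the A/J control pools and between 2.96 and 13.7 on the 19 other arrays. The probe set was dim and was not tested; it was singled out after its values were seen. The summed signal of the 4 brown adipocyte markers measured was 297 to 340 in A/J controls and 195 to 229 in A/J at 3 weeks, a sum that includes the fall of Ucp1 itself. Of the other 3 markers (Cidea, Elovl3 and Dio2), 0 were called in A/J at 3 weeks, where 0.842% of all probe sets were called. Their median log2 change was −0.05.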
